A study of Mus musculus with 4 samples.

Results

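Tuft cell genes were examined in Lgr5-GFP-high cells sorted from the intestinal crypts of control mice and of mice with CREPT deleted in Lgr5+ cells. The 9 genes were chosen by symbol as known tuft cell genes: Dclk1, Trpm5, Pou2f3, Gfi1b, Alox5ap, Ptgs1, Avil, Sh2d6 and Rgs13. Of the 9, 8 had a row in the table of 18436 genes, Sh2d6 was not analysed here, and 7 passed the filter on low values, which kept the 12621 genes whose 4 mice averaged 0.5 FPKM or more. FPKM counts fragments per kilobase of a transcript and per library size, so that levels can be compared between genes of different length. The study asked what CREPT, a nuclear protein encoded by Rprd1b, does in Lgr5+ intestinal stem cells. RNA was sequenced from 2 Lgr5-WT and 2 Lgr5-CREPTKO mice on the C57BL/6 strain, 1 library per mouse. The Lgr5-WT mice carried Lgr5-EGFP-ires-creERT2, an allele that places GFP and a tamoxifen-inducible Cre under the control of Lgr5, without a floxed CREPT gene. The Lgr5-CREPTKO mice carried the same allele together with CREPT fl/fl, in which exon 3 is floxed. Both genotypes received tamoxifen intraperitoneally at 1 mg a day for 5 days, and cells were sorted on day 7. The GFP allele is mosaic in adult mice, so that some crypts have no GFP cells. The study used males and females of 6 to 8 weeks, and the sex of each of these 4 mice is not given in the sources used here.

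Tuft cells are rare chemosensory cells of the intestinal epithelium that arise from Lgr5+ stem cells. They sense luminal metabolites with a cascade shared with taste cells, which ends in the opening of the cation channel Trpm5, and they answer parasites and protists by releasing interleukin 25 and lipid mediators. Their identity depends on the POU domain factor Pou2f3, and Dclk1 is the protein by which they are most often stained.

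The targeted gene followed the labels. Rprd1b stood at 17.69 and 18.09 FPKM in the Lgr5-WT mice and at 6.65 and 7.36 FPKM in the Lgr5-CREPTKO mice. The stem cell markers were high in all of the mice, with Olfm4 between 4932 and 5351 FPKM and Lgr5 between 37.7 and 60.1 FPKM. Summed FPKM per library lay between 468830 and 499327, and the depth, estimated from the step that 1 read makes in the values of small RNA genes, was about 17900000 to 18800000 fragments per mouse. Across the 12621 genes tested with limma, 128 were lower in Lgr5-CREPTKO (1.01%) and 16 were higher (0.127%) at an adjusted p under 0.05 and an absolute log2 fold change above 1, the threshold that the study used. No gene passed that threshold when any single mouse was left out.

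All 7 of the tuft cell genes tested had lower mean log2 values in Lgr5-CREPTKO than in Lgr5-WT (52.3% of all genes tested did), and 0 passed the limma test at an adjusted p under 0.05 (2.67% of all genes were lower and 0.412% higher at that level). At an unadjusted p under 0.05, 4 of the 7 were lower, against 15.2% of all genes. A log2 fold change below -1 was seen in 5 of the 7, against 2.62% of all genes. Their median log2 fold change was -1.16, and that of all genes tested was -0.01. Ptgs1 entered these counts only through its level in Lgr5-WT, since its Lgr5-CREPTKO mean of 0.325 FPKM is under the filter. With a filter of 1 FPKM, which leaves Ptgs1 out, 6 of 6 were lower, 4 of them at an unadjusted p under 0.05. With no filter, 8 of 8 were lower, and 1 of them had an unadjusted p under 0.05. Both Lgr5-CREPTKO mice lay below both Lgr5-WT mice in 6 of the 7, all but Alox5ap, against 31% of all genes. The size of the difference turned on single mice. Without Lgr5-WT mouse 2 the median was -0.74 and without Lgr5-CREPTKO mouse 2 it was -0.78. Without Lgr5-WT mouse 1 the median was -1.71 and without Lgr5-CREPTKO mouse 1 it was -1.81. With 2 mice per genotype, an exact two-sided permutation test of a single gene cannot give a p below 0.333, and it gave 0.333 for 7 genes and 0.667 for Alox5ap. In bulk RNA of sorted cells, fewer tuft-type cells and less of these RNAs per cell cannot be told apart.

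**Figure D1:**
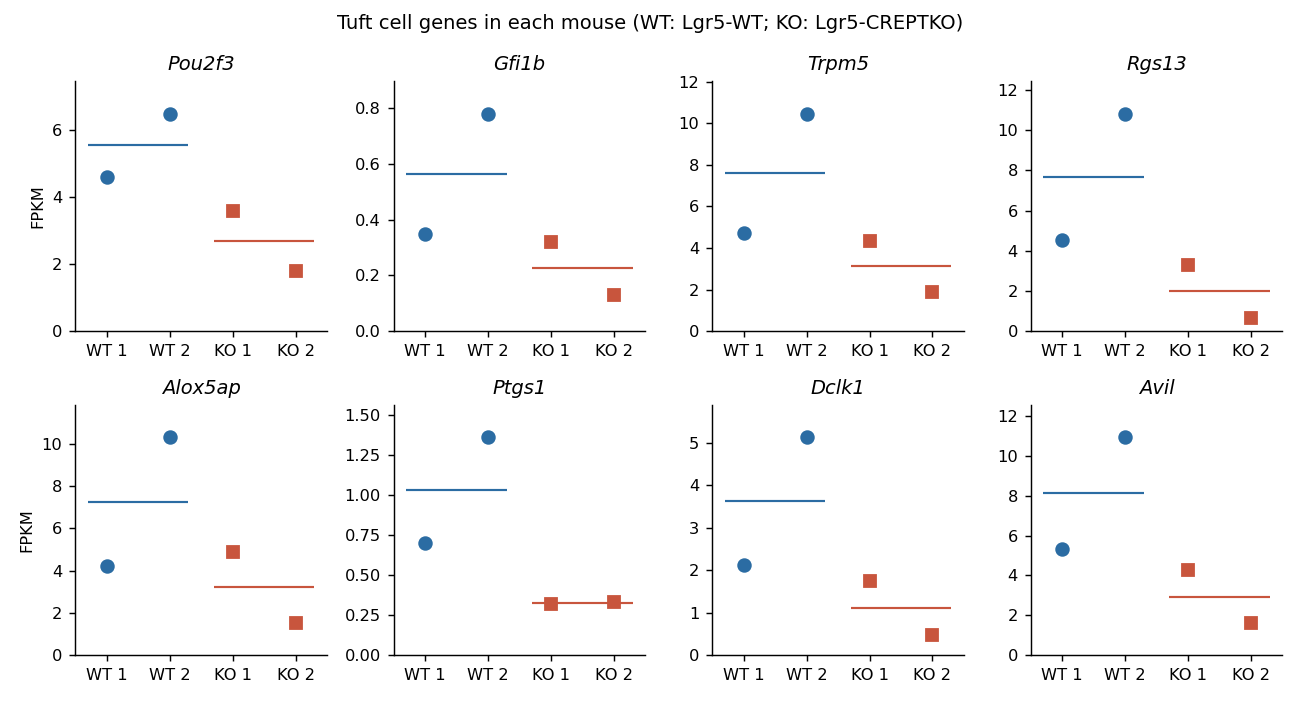
FPKM of the 8 tuft cell genes with a row in the table, each on its own linear axis from 0, with 1 point per mouse, a line at each genotype's mean and the genotypes in different colours. Lgr5-WT mouse 2 was the highest for each gene and Lgr5-CREPTKO mouse 2 the lowest for all but Ptgs1.

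Pou2f3 (chr9:43123927-43205755, minus strand of GRCm38.p6, as are all positions given), the factor that specifies tuft cells, was measured at 4.60 and 6.49 FPKM in the Lgr5-WT mice and at 3.60 and 1.79 FPKM in the Lgr5-CREPTKO mice. The genotypes did not overlap, and the means were 5.54 ± 1.34 and 2.69 ± 1.28 FPKM (SD, n = 2 each). Its log2 fold change was -0.96 (SE 0.325, 95% interval -1.80 to -0.13), with an adjusted p of 0.161 from limma, the lowest of the 7. Gfi1b (chr2:28609450-28621982, minus strand), a zinc finger repressor that marks tuft cells in the gut and is otherwise known from megakaryocytes and red cell precursors, stood at 0.35 and 0.78 FPKM in the Lgr5-WT mice and at 0.32 and 0.13 FPKM in the Lgr5-CREPTKO mice. The first mice of the genotypes were nearly level, and the value of 0.13 FPKM rests on about 4 reads at the estimated depth. Gfi1b was under the filter on low values. With no filter its log2 fold change was -0.54 (SE 0.272, adjusted p = 0.389).

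Trpm5 (chr7:143071529-143094642, minus strand), the channel that depolarises taste and tuft cells, stood at 4.73 and 10.46 FPKM in the Lgr5-WT mice and at 4.35 and 1.88 FPKM in the Lgr5-CREPTKO mice. Lgr5-WT mouse 1 and Lgr5-CREPTKO mouse 1 were nearly level, and the distance between the genotype means came from the second mouse of each. The log2 fold change of Trpm5 was -1.16 (SE 0.482, 95% interval -2.40 to 0.08, adjusted p = 0.226). Rgs13 (chr1:144137386-144177372, minus strand), a regulator that shortens G protein signalling, had values of 4.56 and 10.82 FPKM in the Lgr5-WT mice and of 3.28 and 0.68 FPKM in the Lgr5-CREPTKO mice. This was the widest range of the 8 genes, with the highest mouse 15.9 times the lowest. The log2 fold change of Rgs13 was -1.84 (SE 0.658, 95% interval -3.53 to -0.15, adjusted p = 0.178), and the lowest value rests on about 19 reads.

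The pair of eicosanoid genes differed from each other in pattern. Alox5ap (chr5:149265004-149288153, plus strand), the protein that presents arachidonic acid to 5-lipoxygenase for leukotriene synthesis, stood at 4.21 and 10.31 FPKM in the Lgr5-WT mice and at 4.87 and 1.53 FPKM in the Lgr5-CREPTKO mice. Lgr5-CREPTKO mouse 1 was above Lgr5-WT mouse 1, so that the genotypes overlapped. Its log2 fold change was -1.11 (SE 0.595, 95% interval -2.64 to 0.42, adjusted p = 0.320). Ptgs1 (chr2:36216742-36258593, plus strand), the cyclooxygenase that starts prostaglandin synthesis, stood at 0.70 and 1.36 FPKM in the Lgr5-WT mice and at 0.32 and 0.33 FPKM in the Lgr5-CREPTKO mice. It was the single gene of the 8 in which the Lgr5-CREPTKO mice were level, each at about 17 reads. The log2 fold change of Ptgs1 was -0.86 (SE 0.306, 95% interval -1.64 to -0.07, adjusted p = 0.178).

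Dclk1 (chr3:55242303-55539068, plus strand), a kinase bound to microtubules, stood at 2.12 and 5.13 FPKM in the Lgr5-WT mice and at 1.74 and 0.48 FPKM in the Lgr5-CREPTKO mice. The gap between the nearest mice of the genotypes was small beside the gap within either genotype. Its log2 fold change was -1.37 (SE 0.537, 95% interval -2.76 to 0.01, adjusted p = 0.207). Avil (chr10:127000065-127020994, plus strand), which encodes advillin, an actin-severing protein of the tuft cell's microvilli and rootlets, stood at 5.32 and 10.94 FPKM in the Lgr5-WT mice and at 4.26 and 1.59 FPKM in the Lgr5-CREPTKO mice. It was the most abundant of the 8 in both Lgr5-WT mice. The log2 fold change of Avil was -1.37 (SE 0.499, 95% interval -2.65 to -0.09, adjusted p = 0.183). Exons of Trpm5 and Avil overlap those of genes on the other strand, Tssc4 by 217 bases and Tsfm by 165 bases. Overlaps of this kind are smaller in Alox5ap, Ptgs1 and Dclk1, at 27 to 148 bases, and it is not stated whether the counting used strand. Pou2f3 shares 0.857% of its 50-base words with another gene, and the other members share none.

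**Figure D2:**
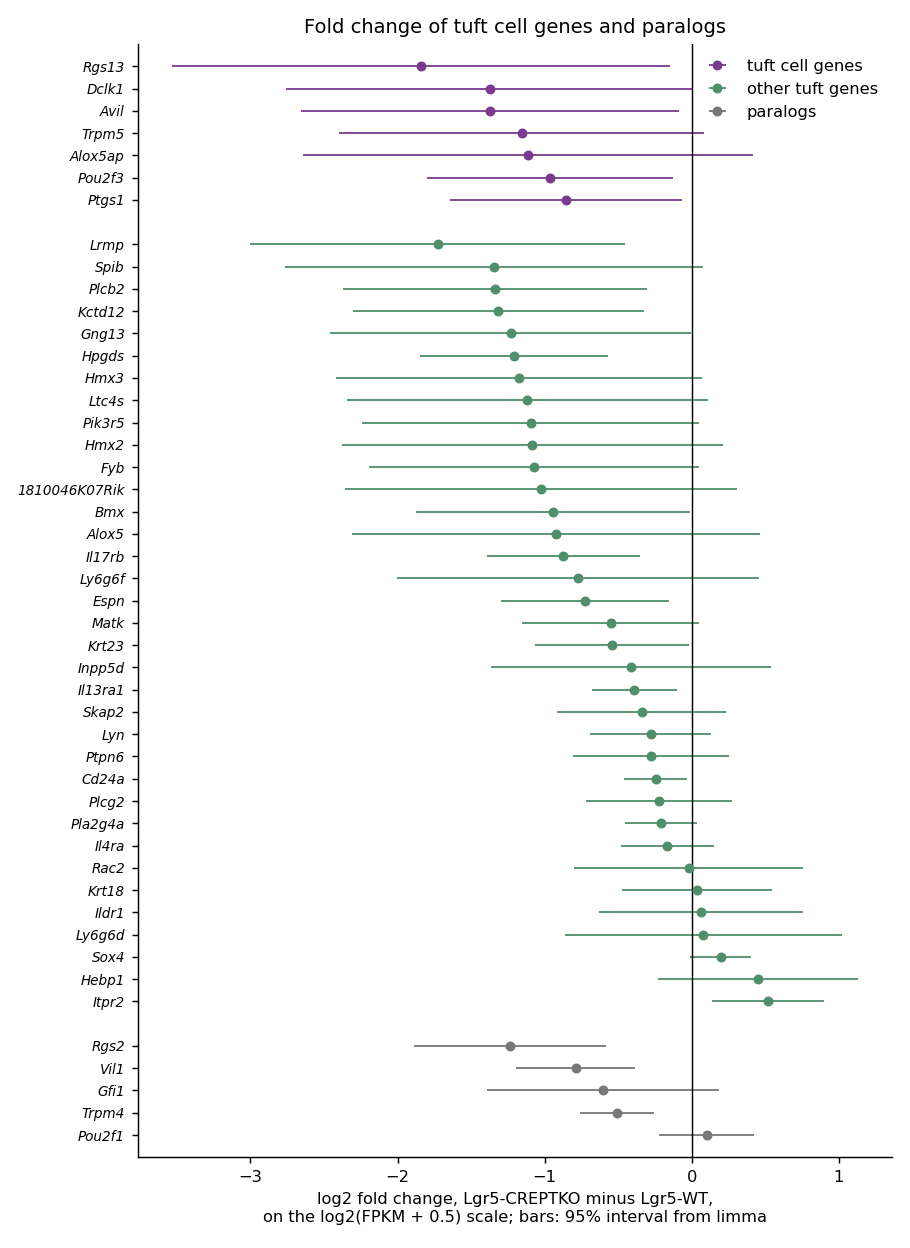
Log2 fold change of each tuft cell gene tested, of most other tuft genes tested and of paralogs, Lgr5-CREPTKO minus Lgr5-WT on the log2(FPKM + 0.5) scale, with the 95% interval from limma. All 7 tuft cell genes sit left of 0, from -1.84 for Rgs13 to -0.86 for Ptgs1, and the intervals of Trpm5, Alox5ap and Dclk1 cross 0.

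Promoter sequence was examined because the tuft cell genes varied together over the mice and Pou2f3 is a factor with a known site. RefSeq windows on GRCm38.p6, running from 250 bases before to 50 bases after a transcript start, were at hand for 7 of the 9 genes (8 windows) and not for Alox5ap and Pou2f3. The octamer bound by POU domain factors, ATGCAAAT on either strand, was in 0 of these 8 windows, in 7 of 51 windows of the other tuft genes listed (13.725%) and in 1.735% of all 32851 windows. Its first 7 letters, ATGCAAA, which every octamer also contains, were in 1 of the 8 (Avil, with a match on each strand), in 9 of the 51 (17.647%) and in 4.627% of all windows. TAAATCAC, a Gfi1-type site, was in 0 of the 8, 1 of the 51 and 0.578% of all. The 7 windows with an octamer belonged to Sucnr1, Tas2r108, Hpgds, Il4ra, 1810046K07Rik, Kctd12 and Ly6g6d. Sucnr1 and Tas2r108 were under the filter. Log2 fold changes were -1.31 for Kctd12, -1.21 for Hpgds, -1.02 for 1810046K07Rik, -0.17 for Il4ra and 0.08 for Ly6g6d. A further window of 1810046K07Rik held no octamer. The 250 bases before the start are shown for Avil, for Rgs13, which had the lowest log2 fold change and no match, and for 1810046K07Rik (Pou2af2), a coactivator that binds Pou2f3, which has a pair of octamers. Each is written 5′ to 3′ on the strand of its gene, with matches in capitals, at chr10:127000459-127000708 (plus strand) for Avil, chr1:144177373-144177622 (minus strand) for Rgs13 and chr9:51328919-51329168 (minus strand) for 1810046K07Rik. A match is a string of letters and was not tested as a binding site.
Avil: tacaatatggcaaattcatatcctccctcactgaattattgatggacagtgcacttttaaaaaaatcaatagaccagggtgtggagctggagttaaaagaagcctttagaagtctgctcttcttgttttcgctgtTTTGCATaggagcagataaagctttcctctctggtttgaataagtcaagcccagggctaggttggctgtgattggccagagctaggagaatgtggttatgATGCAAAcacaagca
Rgs13: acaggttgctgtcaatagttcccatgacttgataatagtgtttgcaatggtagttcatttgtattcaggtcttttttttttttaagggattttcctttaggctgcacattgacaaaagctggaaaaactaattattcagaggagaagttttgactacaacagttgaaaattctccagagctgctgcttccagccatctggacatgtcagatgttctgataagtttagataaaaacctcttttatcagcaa
1810046K07Rik: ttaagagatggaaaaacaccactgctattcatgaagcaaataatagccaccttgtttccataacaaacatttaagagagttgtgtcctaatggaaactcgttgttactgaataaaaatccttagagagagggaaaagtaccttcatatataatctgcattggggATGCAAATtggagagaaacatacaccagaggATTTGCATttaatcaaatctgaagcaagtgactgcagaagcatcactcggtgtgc

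A wider list of 50 other tuft genes was then read in the same fit. Of the 48 in the table, 36 were tested. Mean log2 values were lower in Lgr5-CREPTKO in 30 (52.3% of all genes) and higher in 6. Of the 36, 0 passed the limma test at an adjusted p under 0.05, where the lowest was 0.0721 for Hpgds. Hmx2, Alox5, Bmx and Ly6g6f entered only through Lgr5-WT, since their Lgr5-CREPTKO means, 0.235 to 0.47 FPKM, are under the filter. They stay in the counts that follow. With a filter of 1 FPKM, which leaves them and Inpp5d out, 25 of 31 were lower. That filter has the same limit. Hpgds, Plcb2, Gng13, Hmx3 and Il17rb pass it only through Lgr5-WT, with Lgr5-CREPTKO means of 0.525 to 0.735 FPKM. At an unadjusted p under 0.05, 12 were lower (15.2% of all genes) and 1, Itpr2, was higher (9.27% of all genes were higher at that level). The median log2 fold change of the 36 was -0.64, less far from 0 than that of the 7, and 13 were below -1 (2.62% of all genes). Both Lgr5-CREPTKO mice were below both Lgr5-WT mice in 21 (31% of all genes), and above them in 2 (25.6% of all genes were above).

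Among factors and coactivators, 4 of 5 tested were lower (52.3% of all genes). 1810046K07Rik stood at 1.76 and 3.92 FPKM in the Lgr5-WT mice and at 1.87 and 0.52 FPKM in the Lgr5-CREPTKO mice, overlapping as Alox5ap did (log2 fold change -1.02, SE 0.518). Spib, an Ets factor, stood at 3.35 and 8.66 FPKM against 2.99 and 1.07 FPKM (log2 fold change -1.34, SE 0.553). The homeobox genes Hmx2 and Hmx3 also had log2 fold changes near this size, -1.08 and -1.17, at no more than 2.81 FPKM. Sox4, a factor of early secretory and tuft progenitors, was far more abundant and lay the other way, at 48.56 and 53.56 FPKM against 57.49 and 59.56 FPKM (log2 fold change 0.20, SE 0.0801, adjusted p = 0.220).

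Of the taste cascade, most receptors were near 0. Gnat3 and Tas2r138 were not analysed here, and Tas1r1, Tas1r3, Tas2r108, Sucnr1, Ffar3 and the G protein subunit Gnb3 did not exceed 0.77 FPKM in any mouse. Downstream of them, the G protein subunit Gng13 stood at 1.52 and 3.10 FPKM against 1.19 and 0.28 FPKM (log2 fold change -1.23, SE 0.477). Plcb2, the phospholipase that it acts with, stood at 1.45 and 3.31 FPKM against 0.82 and 0.38 FPKM (log2 fold change -1.34, SE 0.402). Itpr2, a calcium release channel found in many cell types, was higher, at 2.32 and 2.41 FPKM against 3.91 and 3.31 FPKM (log2 fold change 0.52, SE 0.147, adjusted p = 0.123).

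All 4 eicosanoid genes tested were lower (52.3% of all genes), although Alox5 passed the filter only through its level in Lgr5-WT. Hpgds, the prostaglandin D synthase, stood at 1.59 and 2.26 FPKM against 0.44 and 0.65 FPKM, with Lgr5-CREPTKO mouse 1 the lowest (log2 fold change -1.21, SE 0.248). Ltc4s, the leukotriene C4 synthase, stood at 3.59 and 5.57 FPKM against 3.14 and 0.95 FPKM (log2 fold change -1.12, SE 0.476). Alox5, the partner of Alox5ap, stood at 0.54 and 2.48 FPKM against 0.55 and 0.32 FPKM, with Lgr5-WT mouse 1 and Lgr5-CREPTKO mouse 1 level (log2 fold change -0.92, SE 0.538). Pla2g4a, the phospholipase that frees arachidonic acid, was abundant at 19.95 to 24.89 FPKM and differed little (log2 fold change -0.21, SE 0.0953).

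Il25, the cytokine by which tuft cells call group 2 lymphoid cells, was at or near 0, at no more than 0.10 FPKM in any mouse. Il17rb, a chain of its receptor, stood at 1.48 and 1.62 FPKM against 0.66 and 0.58 FPKM, with close agreement within each genotype (log2 fold change -0.87, SE 0.201, adjusted p = 0.0869). Il13ra1, a receptor chain for interleukin 13, stood at 16.33 and 19.21 FPKM against 14.02 and 12.81 FPKM (log2 fold change -0.39, SE 0.113, adjusted p = 0.127). Signalling genes that tuft cells share with leukocytes had lower mean log2 values in 12 of 12 (52.3% of all genes), with a median log2 fold change of -0.48. Of these 12, 3 had an unadjusted p under 0.05 (15.2% of all genes were lower at that level). Both Lgr5-CREPTKO mice were below both Lgr5-WT mice in 6 (31% of all genes), and Rac2 was at -0.02. The lowest in that group was Lrmp, a protein of the endoplasmic reticulum, at 7.79 and 14.90 FPKM against 4.75 and 1.72 FPKM (log2 fold change -1.73, SE 0.495, adjusted p = 0.124). Fyb, an adaptor protein, stood at 1.91 and 4.76 FPKM against 1.61 and 0.86 FPKM (log2 fold change -1.07, SE 0.437). Surface and structural genes were mixed in direction, with 5 of 9 lower, near the 52.3% of all genes. Of the 9, 4 were lower at an unadjusted p under 0.05 in limma (15.2% of all genes) and 0 were higher (9.27% of all genes). Both Lgr5-CREPTKO mice were below both Lgr5-WT mice in 4 of the 9 (31% of all genes). Kctd12, a subunit of GABA-B receptor complexes, stood at 12.34 and 22.41 FPKM against 8.73 and 4.65 FPKM (log2 fold change -1.31, SE 0.385). Krt18, a keratin of the whole crypt epithelium, stood at 376 to 520 FPKM with no order by genotype (log2 fold change 0.03, SE 0.198).

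Relatives of the tuft cell genes that other cells use were set beside them. Pou2f1, the broadly expressed relative of Pou2f3, stood at 3.24 and 3.22 FPKM in the Lgr5-WT mice and at 3.56 and 3.44 FPKM in the Lgr5-CREPTKO mice (log2 fold change 0.10, SE 0.125, adjusted p = 0.669), a level near that of Pou2f3 with little spread between mice. Gfi1, the relative of Gfi1b that acts in goblet and Paneth cells, stood at 1.19 and 2.41 FPKM against 0.92 and 1 FPKM (log2 fold change -0.60, SE 0.307). Trpm4 stood at 27.00 and 24.21 FPKM against 17.02 and 18.73 FPKM (log2 fold change -0.51, SE 0.0975, adjusted p = 0.0656), above the level of Trpm5 in every mouse. Vil1, villin, the relative of advillin in the brush border, stood at 170.57 and 182.07 FPKM against 87.12 and 118.83 FPKM (log2 fold change -0.79, SE 0.157, adjusted p = 0.0689). Rgs2 stood at 2.74 and 4.59 FPKM against 1.24 and 1.21 FPKM (log2 fold change -1.24, SE 0.254, adjusted p = 0.0721), with the Lgr5-CREPTKO mice level where those of Rgs13 were 4.82-fold apart. Pou2f2, Ptgs2, Dclk2, Dclk3 and Rgs16 were under the filter, at no more than 0.72 FPKM in any mouse, so that Dclk1 and Ptgs1 were the more abundant in their families. Of the 5 relatives tested, 0 passed the limma test at an adjusted p under 0.05. At an unadjusted p under 0.05, 3 were lower (15.2% of all genes). Whether a tuft cell gene and its relative differed in their response was not tested.

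The tuft cell genes varied within each genotype as well as between genotypes. The orders and ratios counted here were taken from these same genes, so the shares of all genes beside them are no test. Ptgs1 is among the 7 only through its level in Lgr5-WT. Lgr5-WT mouse 2 was the highest of the 4 mice in 7 of the 7 genes tested, against 28.7% of all genes, and Lgr5-CREPTKO mouse 2 was the lowest in 6, against 22.8%. Both held in 6, against 11.2%. The full order of Lgr5-WT mouse 2, Lgr5-WT mouse 1, Lgr5-CREPTKO mouse 1 and Lgr5-CREPTKO mouse 2 held in 5, against 8.32%. Lgr5-WT mouse 2 reached at least 2 times Lgr5-WT mouse 1 in 5 of the 7, against 1.87% of all genes. Lgr5-CREPTKO mouse 1 reached at least 2 times Lgr5-CREPTKO mouse 2 in 6 of the 7, against 1.75%, and both ratios were at least 2 in 5, against 0.491%. The shares of all genes for these ratios include genes at 0 in both mice of a genotype. In FPKM over all 8 genes, the ratio of Lgr5-WT mouse 2 to Lgr5-WT mouse 1 ran from 1.41 for Pou2f3 to 2.45 for Alox5ap, and that of Lgr5-CREPTKO mouse 1 to Lgr5-CREPTKO mouse 2 from 0.970 for Ptgs1 to 4.82 for Rgs13. Between genotypes, Lgr5-CREPTKO mouse 1 stood at 0.457 (Ptgs1) to 1.16 (Alox5ap) times Lgr5-WT mouse 1, with a median of 0.811. By these medians, the gap between the first mice of the genotypes was smaller than the gap within Lgr5-WT, whose median ratio was 2.22. The mouse numbers pair nothing across genotypes, and other pairs lay further apart. The median ratio of Lgr5-WT mouse 2 to Lgr5-CREPTKO mouse 2 was 6.37. Against Lgr5-WT mouse 1, Lgr5-CREPTKO mouse 2 had a median ratio of 0.367. The ratio of the genotype means, Lgr5-CREPTKO over Lgr5-WT, had a median of 0.379.

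**Figure D3:**
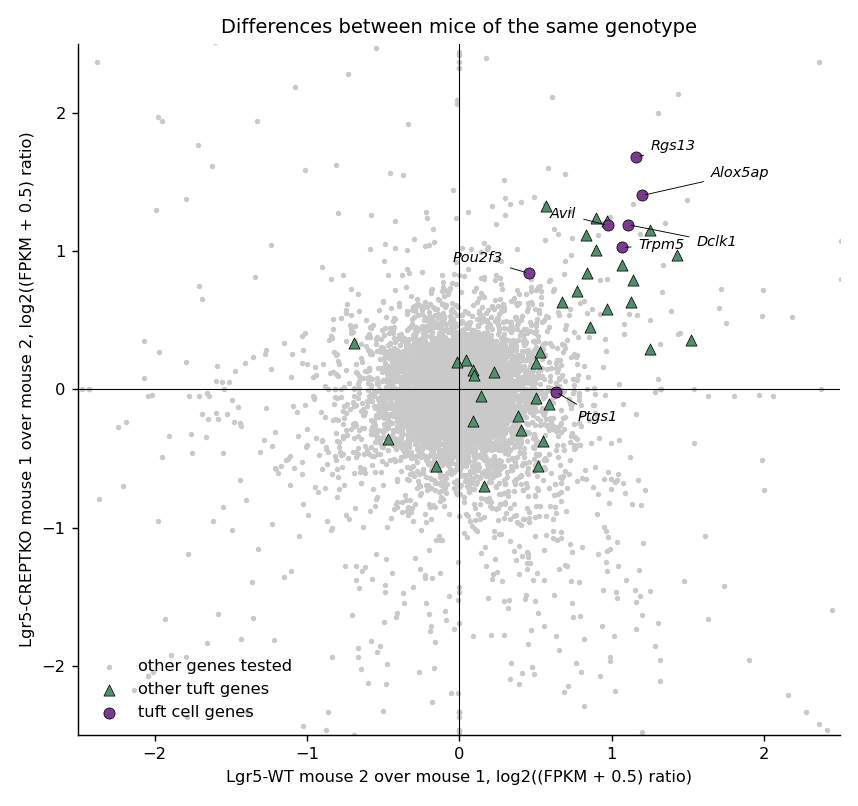
Each point is a gene, with the log2 ratio of Lgr5-WT mouse 2 over mouse 1 on the horizontal axis and that of Lgr5-CREPTKO mouse 1 over mouse 2 on the vertical axis, both of FPKM + 0.5 and cropped at 2.5 (106 of 12621 genes lie outside). Grey points are all other genes tested, and 6 of the 7 tuft cell genes sit in the upper right, with Ptgs1 on the horizontal axis.

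Summed over the 8 genes, tuft cell FPKM was 26.59 and 56.29 in the Lgr5-WT mice and 22.74 and 8.41 in the Lgr5-CREPTKO mice. The composition of the sum was steadier than its size. Avil made up 18.7% to 20.0% of it in the 4 mice. Rgs13 made up 17.1% and 19.2% in the Lgr5-WT mice and 14.4% and 8.09% in the Lgr5-CREPTKO mice. Pou2f3 made up 11.5% of it in Lgr5-WT mouse 2, where the sum was highest, and 21.3% in Lgr5-CREPTKO mouse 2, where it was lowest.

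Sums over marker lists of the other crypt lineages showed other orders of the mice. Enteroendocrine markers summed to 172 and 194 FPKM in the Lgr5-WT mice and to 51.3 and 64.3 FPKM in the Lgr5-CREPTKO mice. Of these 8, 6 passed the threshold as lower (1.01% of all genes), and 8 were lower at an unadjusted p under 0.05 (15.2%). Goblet markers summed to 1473 and 2457 FPKM against 809 and 941 FPKM, with 1 of 8, Spink4, past the threshold and 6 of 8 lower at an unadjusted p under 0.05. The Lgr5-CREPTKO mice lay below both Lgr5-WT mice in 8 of 8 enteroendocrine and 7 of 8 goblet markers (31% of all genes). In the sums of both lists, unlike the tuft cell sum, Lgr5-CREPTKO mouse 2 stood above Lgr5-CREPTKO mouse 1. Single markers could differ from their sum. The full order of mice seen in 5 of the 7 tuft cell genes held in 3 of 8 markers of each list, against 8.32% of all genes. Lgr5-WT mouse 2 was the highest in the enteroendocrine, goblet and tuft cell sums alike. Paneth markers summed to 1394 and 1005 FPKM against 830 and 2445 FPKM, and enterocyte markers to 214 and 293 FPKM against 168 and 341 FPKM, both highest in Lgr5-CREPTKO mouse 2, with 0 of 6 past the threshold in each list by limma and 0 of 6 at an unadjusted p under 0.05. Stem cell markers summed to 5232 to 5705 FPKM, mostly from Olfm4. Of these 6, 0 were past the threshold and 2 were higher at an unadjusted p under 0.05 (9.27% of all genes). Both Lgr5-CREPTKO mice lay above both Lgr5-WT mice in 5 of the 6, against 25.6% of all genes. The part of these marker differences in the tuft cell values was not tested.

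**Figure D4:**
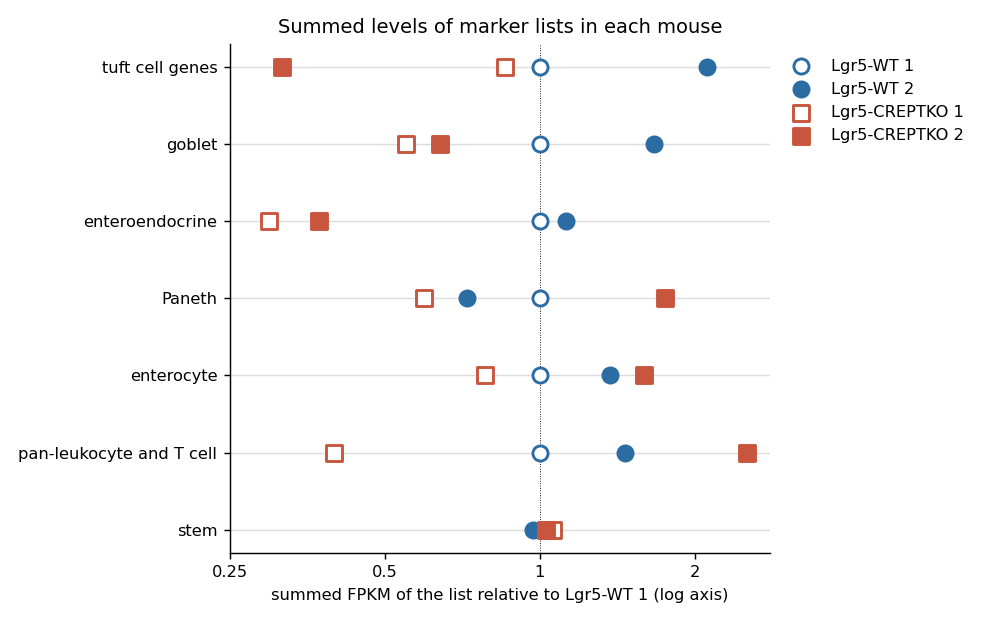
Summed FPKM of each marker list in each mouse, relative to Lgr5-WT mouse 1, on a log axis, with circles for Lgr5-WT and squares for Lgr5-CREPTKO. The tuft cell sum is at 2.12 in Lgr5-WT mouse 2, 0.855 in Lgr5-CREPTKO mouse 1 and 0.316 in Lgr5-CREPTKO mouse 2. The stem cell sum, made up mostly of Olfm4, stays between 0.971 and 1.06.

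Markers of cells from outside the epithelium, some of which also use these genes, were read in the same way, and their part in the tuft cell values was not tested. The 6 pan-leukocyte and T cell markers summed to 4.78 and 7 FPKM against 1.90 and 12.06 FPKM, highest where the tuft cell sum was lowest and above that sum of 8.41 FPKM there, with 0 of 5 tested called. The 5 B cell markers summed to 1.28 to 1.5 FPKM in Lgr5-WT and to 1.31 to 2.23 FPKM in Lgr5-CREPTKO, with 0 of 1 tested called. The 6 macrophage markers summed to 7.88 to 8.75 FPKM against 5.77 to 7.61 FPKM, mostly from Cd68, with 0 of 2 called and Csf1r at no more than 0.30 FPKM. Mast cells, which also use Alox5ap, Ltc4s and Hpgds, were represented by 4 of 6 markers. Cpa3, Mcpt1 and Mcpt2 were at 0 in all mice except Lgr5-CREPTKO mouse 2, where the highest was 1.18 FPKM, and Kit, which other cells use as well, made up the rest at 2.82 to 9.77 FPKM. Megakaryocyte and erythroid markers, relevant to Gfi1b, summed to 1.22 to 1.91 FPKM in Lgr5-WT and to 0.20 to 0.26 FPKM in Lgr5-CREPTKO, with 4 of 6 in the table, 0 of 1 called, and Gp9 and Hbb-bs at 0 in both Lgr5-CREPTKO mice. Stromal and endothelial markers did not sum above 0.56 FPKM, nor enteric neuron and glia markers above 1.2 FPKM.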

How the data were processed

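RNA of sorted Lgr5-GFP-high cells was sequenced by the authors on a BGISEQ-500. The authors deposited a table of FPKM values rounded to 2 decimals, made by their methods with Bowtie2 on GRCm38.p6 transcripts and RSEM. The submitters' processing notes also name HISAT, and versions are not given in the sources used here. The methods describe the RNA-seq of crypts and intestines and not that of sorted cells separately. FPKM is relative to all other genes of a library and holds no counts, so the study's count model was not used.

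Columns were matched to genotypes by the sample titles. Mice numbered 1 and 2 are separate animals, and the numbers pair nothing across genotypes. Values were taken as log2(FPKM + 0.5), which understates changes of genes at low levels. Genes averaging 0.5 FPKM or more were fitted with limma 3.58.1 (lmFit and eBayes with an intensity trend) in R 4.3.3, two-sided, with Benjamini-Hochberg adjustment over all 12621 genes. The method was first tested on simulated data with large changes and the same dispersion for every gene. That simulation does not show how the fit performs on genes that vary within a genotype as the tuft cell genes do. Counts of genes by role come from lists, and the tuft cell genes, lists and tests were chosen with earlier results of these data known. Other tuft genes could be named with values only at a mean of 0.5 FPKM or more, and those named among them were picked with their values known. Markers were named mainly where they led their list or were at 0. Lgr5, Spink4, Csf1r, Cpa3, Mcpt1, Mcpt2 and Gp9 are named as well, a choice made with their values known. Read numbers are estimates from FPKM, the depth and the longest coding transcript of GENCODE M21, and cover counting error only. Annotation and promoter windows are from RefSeq on GRCm38.p6, and Python 3.11.15 with pandas 2.3.3 was used for these. The values of 1 gene of the wider tuft list are not reported here, although it stays in the counts. The pseudocount, filter, scaling, trend, threshold, small RNA genes, replicate block and each mouse left out were varied.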

Additional observations from a re-analysis of the deposited data

How the results depend on the processing

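The count of tuft cell genes and of other tuft genes past the threshold was 0 under all 14 alternatives, and each tuft cell gene tested had a log2 fold change below 0 in every setting. Their median log2 fold change ranged from -1.81 to -0.74 with 1 mouse left out, and the lone mouse of a genotype was then assumed to vary like the others. Adjusted p values from limma ranged over the alternatives from 0.133 to 0.502 for Pou2f3, 0.194 to 0.615 for Trpm5, 0.146 to 0.536 for Rgs13, 0.286 to 0.757 for Alox5ap, 0.138 to 0.419 for Ptgs1, 0.173 to 0.573 for Dclk1 and 0.151 to 0.543 for Avil. The number of the tuft cell genes at an unadjusted p under 0.05, 4 in the fit reported, was 6 without small RNA genes, 2 without the intensity trend, 1 without the filter and 1 with quantile normalization. Scaling each mouse to the same total moved the median of all genes to 0.06 and quantile normalization moved it to 0.04. Over all genes, 128 were lower and 16 higher. These counts became 337 and 52 at an adjusted p under 0.05 alone, 4 and 0 without the trend, 0 and 0 with no filter (smallest adjusted p 0.105), and from 0 to 0 in both directions with any 1 mouse left out. The cause was not tested. The correlation of the deviations of same-numbered mice was -0.027, so the numbers gave no pairing. With the replicate block, 101 genes were lower and 8 higher, and no tuft cell gene was called. The 2 mice per genotype and the few reads of Gfi1b, Ptgs1 and Rgs13 in the Lgr5-CREPTKO mice limit what can be resolved.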

Other observations

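Genes that followed the same within-genotype pattern as the tuft cell genes were counted over the whole table. The rule asked that Lgr5-WT mouse 2 reach at least 2 times Lgr5-WT mouse 1. It also asked that Lgr5-CREPTKO mouse 1 reach at least 2 times Lgr5-CREPTKO mouse 2. Both held in 62 of 12621 genes (0.491%). Genes at 0 in both mice of a genotype met the rule there without differing. Defa4 in Lgr5-WT and Mir3082 in Lgr5-CREPTKO are examples, so the 62 and the shares drawn from them include genes without a 2-fold difference in 1 genotype. Of these, 21 were small RNA genes at low levels and 41 were not. The tuft lists gave 12 of the 62, which is 19.4%. The same 12 are 29.3% of the 41 and 27.9% of the 43 tuft list genes tested. Of the 12, 5 were among the 7 tuft cell genes, from which the pattern was taken, so their share is no test of it. The other 7 were among the 36 other tuft genes tested. The 12 included Avil, Trpm5, Alox5ap, Rgs13 and Dclk1 together with Spib, 1810046K07Rik, Gng13, Plcb2, Hmx3 and Hmx2.

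Some of the others in the 62 are named here after their values were seen, as a description with no test. Sh2d7, an SH2 domain adaptor, stood at 3.96 and 8.35 FPKM in the Lgr5-WT mice and at 2.68 and 0.84 FPKM in the Lgr5-CREPTKO mice. Pik3cg, a phosphoinositide 3-kinase, stood at 0.78 and 2.01 FPKM against 0.77 and 0.23 FPKM. Gip, a hormone of enteroendocrine K cells, stood at 38.98 and 110.62 FPKM against 19.11 and 7.07 FPKM. Fkbp5, a gene induced by glucocorticoids, had the same ratios within genotypes at 16.78 and 37.49 FPKM against 80.21 and 31.33 FPKM, but was highest in Lgr5-CREPTKO mouse 1. The pattern was thus not limited to the genes placed on the tuft lists. Those lists were not checked for completeness, and whether tuft cells use Sh2d7, Pik3cg, Gip or Fkbp5 was not tested. The examples therefore do not show that the pattern reached genes that tuft cells do not use.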
